A study of Mus musculus with 12 samples.

Results

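Cathepsins are the proteases of the lysosome, and 9 cathepsin genes (Ctsa, Ctsb, Ctsc, Ctsd, Ctsh, Ctsk, Ctsl, Ctss and Ctsz) were followed here in mouse glomeruli exposed to TNF. They were taken by gene symbol from the platform annotation, which assigns 20 of the 45101 probe sets of the array to these 9 genes alone. All 20 probe sets are reported, since several genes are measured by more than 1. Together 34945 probe sets carried exactly 1 gene symbol, and these stood for 18193 genes.

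Glomeruli were isolated with magnetic beads from male mice of 6 to 8 weeks, and cultures of 5000 glomeruli were starved of serum before a 12 hour exposure to murine TNF at 50 ng/ml. The 4 genotypes were hybridized, each on 3 arrays: Tnfr1,2-/- (B6.129-Tnfrsf1atm1Mak,Tnfrsf1btm1Mwm), which lacks both TNF receptors, Tnfr1-/- (B6.129-Tnfrsf1atm1Mak), Tnfr2-/- (B6.129-Tnfrsf1btm1Mwm) and wildtype (C57BL/6J). Every culture received TNF, so that each comparison sets mutant against wildtype glomeruli under TNF and none measures induction by TNF. The deletions are present in all cells of the mouse, and the cultures hold podocytes, endothelial and mesangial cells together with any leukocytes lodged in the glomerulus.

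Most cathepsins are cysteine proteases of the papain family, made as inactive precursors, tagged with mannose 6-phosphate, carried to the lysosome and activated there at low pH. Ctsd is an aspartyl protease and Ctsa a serine carboxypeptidase. Besides general protein turnover some members have specialised tasks: Ctsc removes dipeptides from the precursors of granule serine proteases and so activates them, Ctss trims the invariant chain of MHC class II molecules, Ctsk degrades collagen, and Ctsl is known in podocytes for cleaving proteins of the foot process cytoskeleton. TNF acts through TNFR1, encoded by Tnfrsf1a, which carries a death domain and signals to NF-κB and MAP kinases, and through TNFR2, encoded by Tnfrsf1b, which lacks one.

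Values are log2 RMA values, a background-corrected and quantile-normalized summary per probe set. Array medians lay between 5.59 and 5.64. Changes are differences of log2 values from a limma fit to all 12 arrays, tested over all 34945 probe sets. To be called, a probe set had to differ by 1.5-fold or more with an adjusted p (Benjamini-Hochberg) below 0.05, and each gene was represented by the probe set of highest mean. The labels do not tie the replicates to separate animals, so p-values measure the spread among these arrays, whose number limits the precision.

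The targeted genes were checked first. Tnfrsf1b (1418099_at) had values of 5.37 to 5.57 in Tnfr1,2-/- and 4.95 to 5.66 in Tnfr2-/- glomeruli, against 6.76 to 8.36 in Tnfr1-/- and 7.41 to 7.77 in wildtype glomeruli. Tnfrsf1a (1417291_at) had 9.11 to 9.61 in Tnfr1,2-/- and 9.24 to 10.18 in Tnfr1-/- glomeruli, against 10.6 to 10.82 in Tnfr2-/- and 10.23 to 10.73 in wildtype glomeruli. Both genes were thus lower on every array whose label names their loss, while the probes of Tnfrsf1a still gave a signal. In Tnfr1,2-/- against wildtype glomeruli they changed by -2.15 (Tnfrsf1b, limma adjusted p = 0.013) and -1.27 (Tnfrsf1a, 0.041). In the single mutants neither passed the test, with -2.3 for Tnfrsf1b in Tnfr2-/- (limma adjusted p = 0.27) and -0.82 for Tnfrsf1a in Tnfr1-/- glomeruli (0.33). A further probe set of Tnfrsf1b, 1448951_at, was not called in Tnfr1,2-/- against wildtype glomeruli (change -0.09, limma adjusted p = 0.93) and had a change of -0.47 in Tnfr2-/- glomeruli (limma adjusted p = 1). The arrays fell into 2 sets by the difference between the 3′ and 5′ control probe sets of beta-actin, a sign of RNA integrity and of the labelling reaction. This difference was 1.82 to 2.3 in array set 2 (5 arrays: Tnfr1,2-/- 2 and 3, Tnfr1-/- 3, Tnfr2-/- 3 and wildtype 3) and 0.67 to 1 in array set 1 (7 arrays). Markers were chosen for each cell type and set against the array median. All 6 tested for podocytes and all 8 for glomerular endothelium lay above it on all 12 arrays. So did 7 of 8 for mesangial and smooth muscle cells, against 2 of 8 for tubular epithelium. All 4 for parietal epithelium (Cldn1, Pax8, Krt8 and Krt18) lay above it as well. The paper describes the isolated glomeruli as free of Bowman's capsule, and whether parietal cells were present was not tested. Among leukocyte markers, 12 of 16 for macrophages, 2 of 8 for lymphocytes and 0 of 7 for neutrophils lay above the array median on all 12 arrays.

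Ctsc, the dipeptidyl peptidase, was the only cathepsin called in a comparison of genotypes. It was lower in both mutants without TNFR1, and no change was detected in Tnfr2-/- glomeruli. On probe set 1437939_s_at Ctsc had values of 4.85, 4.74 and 4.37 in Tnfr1,2-/- glomeruli, 4.53, 3.78 and 4.19 in Tnfr1-/- glomeruli, 6.08, 6.94 and 7.87 in Tnfr2-/- glomeruli, and 7.64, 6.38 and 7.25 in wildtype glomeruli. All 6 arrays without TNFR1 lay below all 6 arrays with it, as was the case for 1 of the 20 cathepsin probe sets and 1.39% of all probe sets, and the 6 values without TNFR1 also lay below the median of their array. In Tnfr1,2-/- glomeruli 1437939_s_at fell by 2.43 log2 units, or 5.41-fold (SE 0.432, limma adjusted p = 0.028), a comparison in which 1 of the 20 cathepsin probe sets and 0.527% of all probe sets were called lower. In Tnfr1-/- glomeruli it fell by 2.92, 7.58-fold (SE 0.432, limma adjusted p = 0.011), where again 1 of 20 and 0.429% of all were called lower. In Tnfr2-/- glomeruli its change was -0.13 (95% interval -1.08 to 0.83, limma adjusted p = 1). The call in Tnfr1,2-/- glomeruli was lost without wildtype 1, wildtype 3, Tnfr2-/- 2 or any of the 3 Tnfr1,2-/- arrays (adjusted p of at most 0.13), and that in Tnfr1-/- glomeruli without wildtype 1, wildtype 3 or Tnfr1-/- 2 (at most 0.056).

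The other Ctsc probe sets moved in the same direction with smaller changes. Probe set 1446834_at of Ctsc had values of 4.47, 5.35 and 5.76 in Tnfr1,2-/- glomeruli, 4.75, 4.08 and 5.13 in Tnfr1-/- glomeruli, 5.66, 6.76 and 7.39 in Tnfr2-/- glomeruli, and 7.22, 5.75 and 7.08 in wildtype glomeruli. Tnfr1-/- arrays lay below all wildtype arrays, while Tnfr1,2-/- 3 lay just above wildtype 2. Its change was -1.49 in Tnfr1,2-/- glomeruli (SE 0.526, adjusted p = 0.49) and -2.03 in Tnfr1-/- glomeruli (SE 0.526, adjusted p = 0.19, limma). Probe set 1416382_at of Ctsc, the one with the highest mean, had values of 10.48, 10.82 and 11.1 in Tnfr1,2-/- glomeruli, 10.01, 9.53 and 10.28 in Tnfr1-/- glomeruli, 10.72, 11.75 and 11.79 in Tnfr2-/- glomeruli, and 11.71, 10.99 and 11.81 in wildtype glomeruli. On this probe set the Tnfr1-/- arrays lay below all others, and 1 Tnfr1,2-/- array lay above the lowest wildtype array. Its change was -0.7 in Tnfr1,2-/- glomeruli (SE 0.33, adjusted p = 0.71) and -1.56 in Tnfr1-/- glomeruli (SE 0.33, adjusted p = 0.076, limma). Neither of these 2 probe sets passed the test against wildtype.

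**Figure D1:**
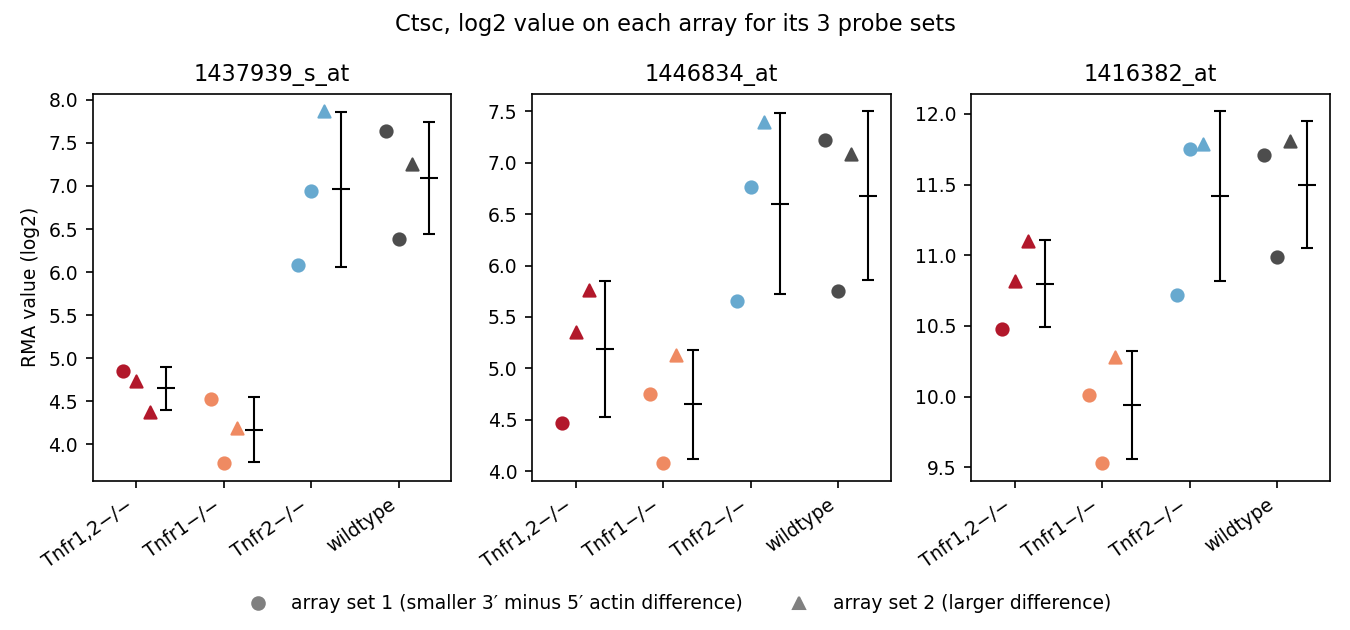
Log2 RMA value of Ctsc on each of the 12 arrays, 1 panel per probe set with its own vertical scale, by genotype on the horizontal axis; array set 1 is drawn as circles and array set 2 as triangles, and the bar beside each group is its mean ± SD (n = 3). On 1437939_s_at all 6 arrays of Tnfr1,2-/- and Tnfr1-/- glomeruli lie at 4.85 or below, and all of Tnfr2-/- and wildtype glomeruli at 6.08 or above.

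The effect of the Tnfr1 locus, taken over all 12 arrays as the mean of both contrasts that differ in TNFR1 only, used 6 arrays without and 6 with the receptor. This contrast was chosen with earlier results of these data known. By this measure all 3 Ctsc probe sets were called lower, and no other of the 20, where 1.1% of all probe sets were. The change was -2.61 for 1437939_s_at (6.12-fold, SE 0.305, limma adjusted p = 9e-04). It was -1.72 for 1446834_at (3.3-fold, SE 0.372, limma adjusted p = 0.044) and -1.09 for 1416382_at (2.13-fold, SE 0.234, limma adjusted p = 0.042). The call of 1437939_s_at held in each of the 12 fits that left out 1 array, with an adjusted p of at most 0.0042. The calls of 1446834_at and of 1416382_at held in 2 of these fits each, where their highest adjusted p was 0.13, and were lost without any single array other than wildtype 2 or Tnfr2-/- 1. The arrays overlapped for both, since 1446834_at reached 5.76 without TNFR1 and began at 5.66 with it, and 1416382_at reached 11.1 without and began at 10.72 with it.

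Loss of TNFR2 was not accompanied by a detectable change of Ctsc. The effect of the Tnfr2 locus over all 12 arrays was 0.18 for 1437939_s_at (95% interval -0.49 to 0.85), 0.23 for 1446834_at (-0.59 to 1.05) and 0.39 for 1416382_at (-0.13 to 0.9), each with an adjusted p of 1 in limma. These intervals leave room for changes of the size of the called threshold. Between mutants, 1437939_s_at was lower in Tnfr1,2-/- than in Tnfr2-/- glomeruli (log2 change -2.31, 4.95-fold, SE 0.432, limma adjusted p = 0.036). It was 2.79 higher in Tnfr2-/- than in Tnfr1-/- glomeruli (6.93-fold, SE 0.432, limma adjusted p = 0.013). Of the 12 fits that left out 1 array, 4 kept the first of these calls and 9 the second. Tnfr1,2-/- glomeruli stood above Tnfr1-/- glomeruli by 0.49 on 1437939_s_at, 0.54 on 1446834_at and 0.86 on 1416382_at, all with an adjusted p of 0.97 in limma. The test of whether the change with loss of TNFR1 depended on TNFR2 gave interactions of 0.61, 0.62 and 0.94 for these probe sets, each with an adjusted p of 1.

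The 3 Ctsc probe sets differed in the size of the change, which was known when they were chosen to be shown and is given as a description. The value of 1416382_at minus that of 1437939_s_at averaged 5.96 ± 0.45 over the 6 arrays without TNFR1 (5.48 to 6.73) and 4.44 ± 0.36 over the 6 arrays with it (3.92 to 4.81, SD, n = 6 each). The difference between these means was 1.52, against 0.63 for 1416382_at minus 1446834_at and 0.89 for 1446834_at minus 1437939_s_at. The probe sets lie in different ranges of the scale, 1437939_s_at below the array median on all 6 arrays without TNFR1 and 1416382_at above it on all 12. All 3 probe sets followed each other over the 12 arrays, with Pearson's r of 0.957 between 1416382_at and 1446834_at, 0.876 between 1416382_at and 1437939_s_at, and 0.915 between 1446834_at and 1437939_s_at, a description over arrays that share genotype and array set. The suffix of 1437939_s_at marks probes shared by several transcripts, and the place of the probe sets on the Ctsc transcript was not analysed here.

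Within array sets the Ctsc difference kept its direction on all 3 probe sets. For 1437939_s_at Tnfr1,2-/- minus wildtype was -2.69 in array set 2 (2 arrays against 1) and -2.16 in array set 1 (1 against 2). Tnfr1-/- minus wildtype was -3.06 in array set 2 (1 against 1) and -2.85 in array set 1 (2 against 2). Probe set 1416382_at gave -0.85 and -0.87 for Tnfr1,2-/- and -1.53 and -1.58 for Tnfr1-/- glomeruli in array sets 2 and 1. With the array set as a block, 1416382_at and 1446834_at passed the test in Tnfr1-/- against wildtype glomeruli as well, so that 3 probe sets were called there, and 2 in Tnfr1,2-/- against wildtype.

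Read against all probe sets, no cathepsin was called in Tnfr2-/- against wildtype glomeruli, where 0 (0%) of all were called in either direction by limma. Even the deleted gene Tnfrsf1b, lower by 2.3 log2 units on 1418099_at, was not called in that comparison (limma adjusted p = 0.27). The lack of calls there thus does not show that changes were absent. There 191 probe sets, none of them of a cathepsin, had an unadjusted p under 0.05, and the SAM statistic called no cathepsin either. Between mutants 1 of 20 was called lower in Tnfr1,2-/- than in Tnfr2-/- glomeruli (background 0.612%), 1 of 20 higher in Tnfr2-/- than in Tnfr1-/- glomeruli (0.515%) and 0 between Tnfr1,2-/- and Tnfr1-/- glomeruli (0.00286%, 1 probe set in all, with 794 at an unadjusted p under 0.05). For the Tnfr2 locus it was 0 (0.02% in either direction, 305 at an unadjusted p under 0.05) and for the interaction 0 (0%, 417 at an unadjusted p under 0.05). Counted by genes, 0 of 9 cathepsins were called lower in Tnfr1,2-/- (background 0.72%) and 0 of 9 in Tnfr1-/- glomeruli (0.605%), and 1 of 9, Ctsc, for the Tnfr1 locus (1.46%). At an unadjusted p under 0.05 stood 6 of the 20 probe sets in Tnfr1,2-/- against wildtype (7.22% of all) and 4 in Tnfr1-/- against wildtype (5.15% of all). The 6 were the Ctsz probe sets, 1437939_s_at and 1446834_at of Ctsc, and 1417491_at of Ctsb, which was higher. The 4 were the Ctsc probe sets and, again higher, 1417491_at of Ctsb. Probe sets of the same gene are not independent, so these shares do not describe the family as a whole. The median change of the 9 genes against wildtype was -0.23 for Tnfr1,2-/-, 0.13 for Tnfr1-/- and -0.04 for Tnfr2-/- glomeruli, and that of all genes was 0 for each.

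**Figure D2:**
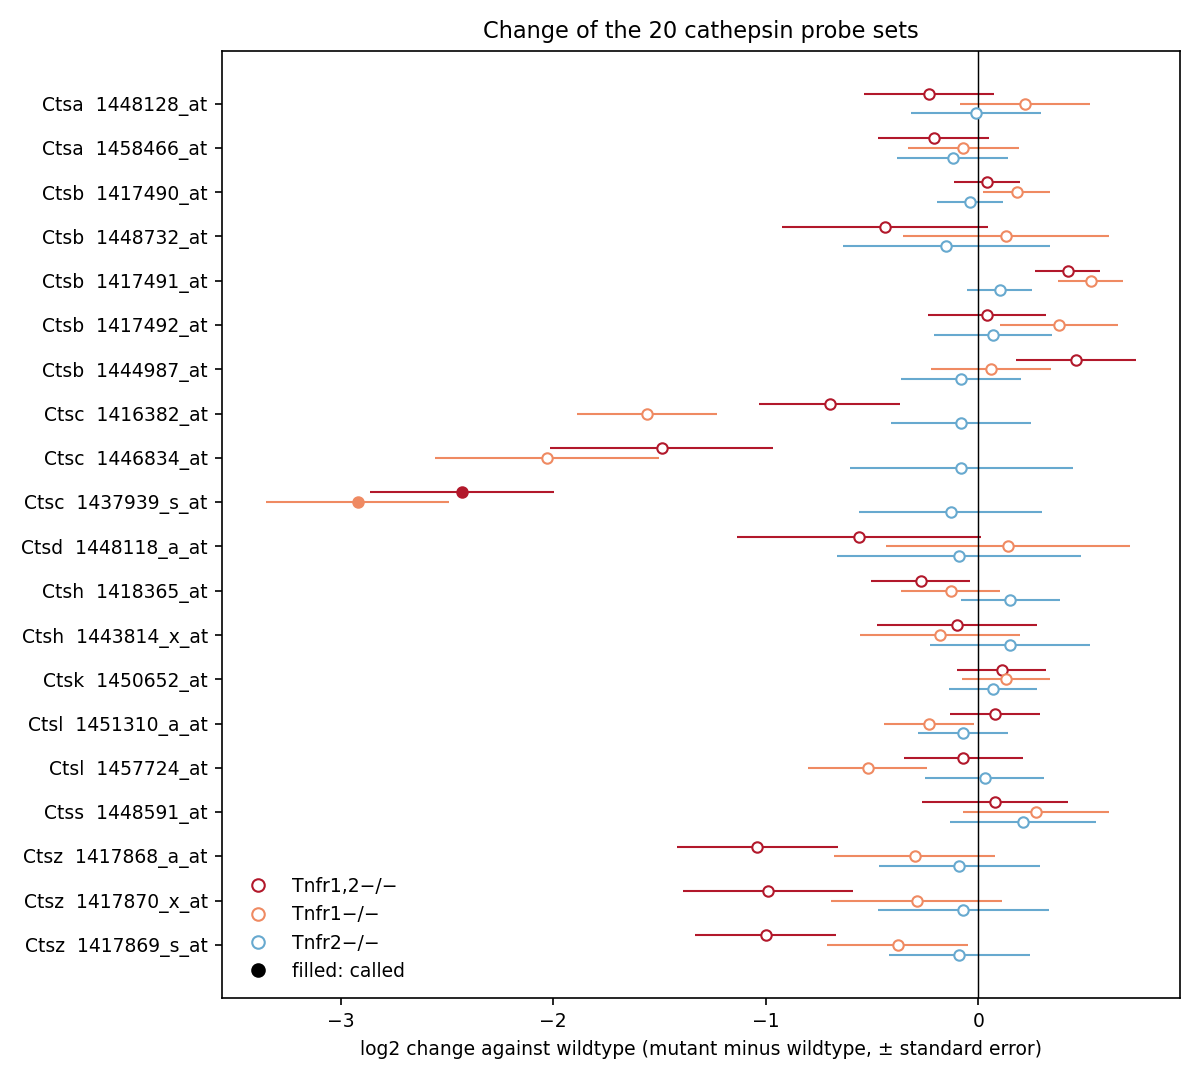
Change of each of the 20 cathepsin probe sets (rows) against wildtype on the log2 scale, mutant minus wildtype ± standard error from the limma fit, for Tnfr1,2-/-, Tnfr1-/- and Tnfr2-/- glomeruli from top to bottom within a row; filled symbols passed the test. Only Ctsc 1437939_s_at is filled, at -2.43 and -2.92, while the Ctsz probe sets lie near -1 in Tnfr1,2-/- glomeruli without passing.

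The promoter of Ctsc is shown because this gene carried the difference, beside those of Ctsd and Ctss, for which no difference was detected. Each run is the 250 bases before the annotated start of transcription in RefSeq (GRCm38.p6), at chr7:88277835-88278084 (+ strand) for Ctsc, chr7:142387828-142388077 (- strand) for Ctsd and chr3:95526536-95526785 (+ strand) for Ctss. Capitals mark matches to TTCNNNGAA (the GAS element bound by STAT factors), CACGTG (the E-box read by TFEB and related factors, which drive lysosomal genes), GAAA repeated after any 2 bases (the core read by interferon regulatory factors) and TGANTCA (AP-1).
Ctsc: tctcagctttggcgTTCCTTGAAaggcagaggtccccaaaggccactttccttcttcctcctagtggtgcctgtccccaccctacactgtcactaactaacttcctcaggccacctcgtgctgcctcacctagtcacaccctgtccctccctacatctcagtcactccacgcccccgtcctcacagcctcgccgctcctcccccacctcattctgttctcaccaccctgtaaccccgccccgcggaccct
Ctsd: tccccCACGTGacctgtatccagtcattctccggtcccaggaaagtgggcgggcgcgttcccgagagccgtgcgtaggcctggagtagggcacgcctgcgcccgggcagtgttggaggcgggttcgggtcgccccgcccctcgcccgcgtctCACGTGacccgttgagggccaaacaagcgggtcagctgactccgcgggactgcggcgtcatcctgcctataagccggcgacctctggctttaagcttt
Ctss: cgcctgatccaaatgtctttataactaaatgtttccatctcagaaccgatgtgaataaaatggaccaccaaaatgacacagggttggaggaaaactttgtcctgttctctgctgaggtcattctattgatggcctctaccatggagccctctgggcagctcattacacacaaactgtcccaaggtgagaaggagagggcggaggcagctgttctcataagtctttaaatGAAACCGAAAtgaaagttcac
Promoters were found for 7 of the 9 genes, 8 windows in all because Ctsa has 2, and Ctsb and Ctsh had no entry. Motifs were searched on both strands from 250 bases before to 50 after the start, and overlapping motifs were counted separately. Ctsc was the only one of the 8 with TTCNNNGAA, at position -236, which 8.3% of all 32851 promoters of that length hold. It held neither GGG followed after any 5 bases by CC, a loose NF-κB pattern found in 50.8% of all promoters, nor TGANTCA (7.81%), CACGTG (7.15%) or the interferon regulatory core (3.44%). The E-box CACGTG stood in 3 of the 8 windows, 1 each of Ctsa, Ctsd and Ctsl, and the interferon regulatory core in that of Ctss alone, at -21. These are matches of letters in a window and not measured binding sites.

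Ctsz, a carboxypeptidase found mainly in macrophages and other phagocytes, had the next largest change. Its probe set 1417868_a_at had values of 11.62, 11.36 and 10.06 in Tnfr1,2-/- glomeruli, 11.99, 12.1 and 11.17 in Tnfr1-/- glomeruli, 12.09, 12.1 and 11.7 in Tnfr2-/- glomeruli, and 12.07, 12.3 and 11.8 in wildtype glomeruli. All 3 Tnfr1,2-/- arrays lay below all wildtype arrays, and the third was more than 1 log2 unit below the rest of its group. The remaining Ctsz probe sets, 1417869_s_at and 1417870_x_at, followed it with r of 0.987 and 0.996 and gave the same order. In Tnfr1,2-/- glomeruli the 3 changes were -1.04, -1 and -0.99, or 2.06-fold, 2-fold and 1.99-fold, with adjusted p of 0.52, 0.44 and 0.61 in limma. None passed the test. In Tnfr1-/- glomeruli they were -0.3, -0.38 and -0.29, and in Tnfr2-/- glomeruli -0.09, -0.09 and -0.07, all with an adjusted p of 1. With array weights, which give less weight to arrays that deviate, 1417868_a_at (-0.89) and 1417869_s_at (-0.84) were called in Tnfr1,2-/- glomeruli, with limma adjusted p of 0.042 and 0.036.

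The Ctsz values also moved with the array set. Array set 2 stood below array set 1 by 0.64 on 1417868_a_at (limma with genotype in the model, -0.64, adjusted p = 0.033), and Tnfr1,2-/- glomeruli had 2 of their 3 arrays in set 2 where wildtype had 1. Within array set 2 Tnfr1,2-/- minus wildtype was -1.09 (2 arrays against 1) and within array set 1 it was -0.57 (1 against 2). Without overlap, 4 of the 20 probe sets were lower in Tnfr1,2-/- than in wildtype glomeruli, the 3 of Ctsz and 1437939_s_at of Ctsc, against 5.2% of all probe sets.

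Ctsb, an endopeptidase that also removes dipeptides from the carboxyl end, was measured by 5 probe sets. These differed in direction in Tnfr1,2-/- and in Tnfr2-/- glomeruli. The probe set with the highest mean, 1417490_at, had values of 13.23, 13.17 and 12.95 in Tnfr1,2-/- glomeruli, 13.4, 13.18 and 13.18 in Tnfr1-/- glomeruli, 13.1, 13.07 and 12.95 in Tnfr2-/- glomeruli, and 13.19, 13.29 and 12.75 in wildtype glomeruli. Its groups overlapped, and the changes were 0.04, 0.18 and -0.04 for the mutants in that order. On 1417491_at Ctsb had 10.85, 10.66 and 10.46 in Tnfr1,2-/- glomeruli, 10.84, 10.86 and 10.6 in Tnfr1-/- glomeruli, 10.35, 10.12 and 10.52 in Tnfr2-/- glomeruli, and 10.38, 10.19 and 10.13 in wildtype glomeruli. This was the 1 of 20 probe sets above wildtype without overlap, in Tnfr1,2-/- (5.95% of all probe sets) and in Tnfr1-/- glomeruli (4.88%). Its changes of 0.42 (SE 0.153, adjusted p = 0.52) and 0.53 (SE 0.153, adjusted p = 0.3) did not pass the test in limma. The other 3 changed by -0.44, 0.04 and 0.46 in Tnfr1,2-/- glomeruli (1448732_at, 1417492_at and 1444987_at of Ctsb), none called. In Tnfr1-/- glomeruli they changed by 0.13, 0.38 and 0.06, so that all 5 Ctsb probe sets were higher there, none called. For 1448732_at Tnfr1,2-/- minus wildtype was 0.03 within array set 1 and -0.07 within array set 2.

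Among the remaining endopeptidases, Ctsl on 1451310_a_at had values of 13.05, 13.21 and 13.22 in Tnfr1,2-/- glomeruli, 13, 12.31 and 13.23 in Tnfr1-/- glomeruli, 12.86, 12.99 and 13.2 in Tnfr2-/- glomeruli, and 12.98, 13.01 and 13.25 in wildtype glomeruli. A single Tnfr1-/- array stood low and the other groups overlapped, with changes of 0.08, -0.23 and -0.07 for the mutants in that order. Probe set 1457724_at of Ctsl was low on the same array, at 6.6, and its changes were -0.07, -0.52 and 0.03. Ctss had 10.47, 11.5 and 10.95 in Tnfr1,2-/- glomeruli, 10.96, 11.8 and 10.74 in Tnfr1-/- glomeruli, 10.9, 11.44 and 10.98 in Tnfr2-/- glomeruli, and 10.39, 11.28 and 11.01 in wildtype glomeruli. In each genotype the array numbered 2 was the highest, the groups overlapped fully, and the changes were 0.08, 0.27 and 0.21. Ctsk had changes of 0.11, 0.13 and 0.07, with all 12 values between 6.87 and 7.48. None of these was called.

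Ctsd, the aspartyl protease, had values of 11.49, 10.56 and 9.72 in Tnfr1,2-/- glomeruli, 11.7, 11.75 and 10.41 in Tnfr1-/- glomeruli, 11.49, 11.48 and 10.19 in Tnfr2-/- glomeruli, and 11.53, 11.7 and 10.21 in wildtype glomeruli. Every genotype thus had 1 or 2 arrays more than 0.9 below its others, and these were the arrays of set 2. Array set 2 stood 1.34 below array set 1 (change -1.34, SE 0.134, limma adjusted p = 3.6e-05). The change of Ctsd in Tnfr1,2-/- glomeruli was -0.56 over all arrays (SE 0.575, limma adjusted p = 0.87), but -0.07 within array set 2 and -0.12 within array set 1. Lower in array set 2 were also 1448732_at of Ctsb (-0.99, limma adjusted p = 0.0037) and 1417870_x_at of Ctsz (-0.7, limma adjusted p = 0.026). Higher were 1446834_at of Ctsc (0.89, limma adjusted p = 0.032) and 1443814_x_at of Ctsh (0.72, limma adjusted p = 0.009). Counted over the 20 probe sets, 4 were called lower and 2 higher in array set 2, against 10.6% and 4.95% of all probe sets.

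**Figure D3:**
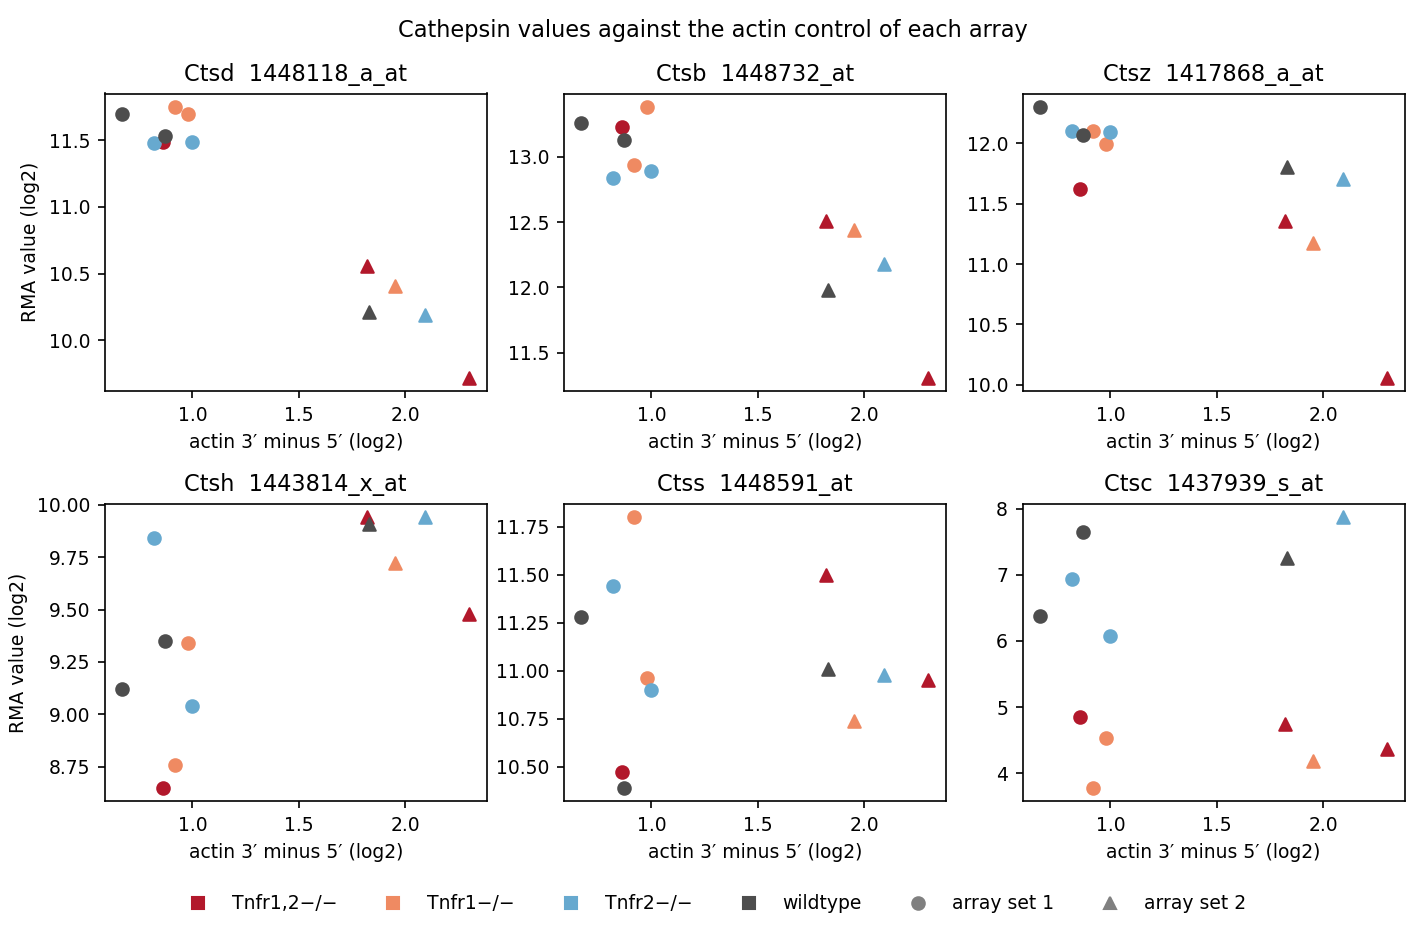
Log2 RMA value of 6 cathepsin probe sets (vertical axis, own scale per panel) against the beta-actin 3′ minus 5′ difference of each array (horizontal axis, log2); colours are genotypes, circles array set 1 and triangles array set 2. Ctsd falls by array set in all genotypes, whereas Ctsc 1437939_s_at separates Tnfr1,2-/- and Tnfr1-/- from Tnfr2-/- and wildtype glomeruli in both sets.

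Ctsh, an aminopeptidase, had values of 9.85, 10.38 and 9.61 in Tnfr1,2-/- glomeruli, 10.17, 10.04 and 10.06 in Tnfr1-/- glomeruli, 9.95, 10.69 and 10.46 in Tnfr2-/- glomeruli, and 10.11, 10.05 and 10.51 in wildtype glomeruli on 1418365_at. The groups overlapped, and the changes were -0.27, -0.13 and 0.15 for the mutants in that order. Ctsa, which also protects lysosomal beta-galactosidase and neuraminidase, had 11.02, 10.8 and 9.73 in Tnfr1,2-/- glomeruli, 11.01, 11.32 and 10.55 in Tnfr1-/- glomeruli, 10.68, 10.9 and 10.64 in Tnfr2-/- glomeruli, and 10.76, 10.94 and 10.54 in wildtype glomeruli on 1448128_at. The third Tnfr1,2-/- array stood about 0.8 below the lowest of the rest, and the changes were -0.23, 0.22 and -0.01. The second probe sets, 1443814_x_at of Ctsh and 1458466_at of Ctsa, changed by -0.1 and -0.21 in Tnfr1,2-/- glomeruli and were not called in any comparison. Lower in Tnfr1-/- than in wildtype glomeruli without overlap were 3 of the 20 probe sets, all of Ctsc (4.91% of all probe sets).

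The genes around the cathepsins were described by 10 lists of the lysosome and of cathepsin function. In the list of cathepsin inhibitors 1 of 17 tested genes was called lower in Tnfr1,2-/- and 1 of 17 in Tnfr1-/- glomeruli, against 0.72% and 0.605% of all genes, and none was called higher. Both times this was Cst7, cystatin F, an inhibitor of leukocytes that is targeted to lysosomes and is known to act on Ctsc. Cst7 had values of 4.21, 4.07 and 3.81 in Tnfr1,2-/- glomeruli, 4.14, 4.14 and 3.84 in Tnfr1-/- glomeruli, 4.8, 5.12 and 4.5 in Tnfr2-/- glomeruli, and 5.06, 6.02 and 5.46 in wildtype glomeruli. All 6 arrays without TNFR1 lay below the 6 with it, and the gene was dim, above the array median on 1 of 12 arrays. Cst7 fell by 1.49 log2 units in Tnfr1,2-/- glomeruli (2.8-fold, SE 0.242, limma adjusted p = 0.017). It fell by 1.48 in Tnfr1-/- glomeruli (2.78-fold, SE 0.242, limma adjusted p = 0.019), and its change in Tnfr2-/- glomeruli was -0.71 (SE 0.242, limma adjusted p = 1). In fits to the 6 arrays compared neither call of Cst7 held (limma adjusted p = 0.12 and 0.14). Both were lost without wildtype 2 or wildtype 3, that in Tnfr1,2-/- glomeruli also without Tnfr1,2-/- 2 or 3 and that in Tnfr1-/- glomeruli without any of its 3 arrays (limma adjusted p of at most 0.078 and 0.084). The filter on dim probe sets removed Cst7.

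Other tested inhibitors did not pass the test. The list held 21 genes, of which Cst8, Stfa1, Stfa2 and Serpina3g were not matched to a tested probe set. Serpina3g is thus missing from these counts, and the paper lists it as lower in Tnfr1,2-/- and Tnfr1-/- than in wildtype glomeruli. Cstb, the intracellular inhibitor cystatin B, changed by -0.37 in Tnfr1,2-/- and -0.32 in Tnfr1-/- glomeruli (limma adjusted p = 0.54 and 0.9), and Cst6 by -0.4 in Tnfr1,2-/- glomeruli (0.61). Ctla2a, an inhibitor of Ctsl in the mouse, changed by 1.07 and 0.78 (limma adjusted p = 0.56 and 1), and was called only with array weights in Tnfr1,2-/- glomeruli (1.73, adjusted p = 0.005). The median change of the list was 0.03 in Tnfr1,2-/- and -0.08 in Tnfr1-/- glomeruli, against 0 for all genes.

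Among the granule serine proteases that Ctsc activates, 0 of 9 were called in either comparison, and Elane, Ctsg, Gzma and Mcpt4 lay below the array median on all 12 arrays. Their changes in Tnfr1,2-/- glomeruli were between -0.1 and 0.07, and the list medians were -0.01 and -0.02. Of 13 other cathepsins 0 were called, with a change of 0.55 for Ctso (limma adjusted p = 0.33) as the smallest adjusted p in Tnfr1,2-/- glomeruli and list medians of 0.01 and 0.02. The 10 tested genes of MHC class II processing, including H2-Aa (0.69, adjusted p = 0.81) and Ifi30 (-0.32, adjusted p = 0.79), had 0 calls in limma and medians of 0.1 and 0.33. The podocyte proteins known as substrates of Ctsl, Synpo, Cd2ap and Dnm1, changed by 0.83, 0.37 and -0.1 in Tnfr1,2-/- glomeruli, with 0 of 3 called.

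The machinery that makes and fills lysosomes gave 0 calls in Tnfr1,2-/- or Tnfr1-/- against wildtype glomeruli. The median changes in these mutants, in that order, were -0.08 and 0.11 for 25 other hydrolases, -0.1 and 0.13 for 12 membrane and lipid-transfer proteins, and 0.01 and 0.1 for 15 proton pump subunits. They were -0.27 and 0.11 for 9 genes of mannose 6-phosphate sorting, and -0.18 and 0.02 for the transcription factors Tfeb, Tfe3, Mitf and Tfec. The smallest adjusted p was that of Gnptab, the enzyme that starts the mannose 6-phosphate tag. Gnptab had values of 7.78, 7.32 and 7.81 in Tnfr1,2-/- glomeruli, 7.76, 7.46 and 7.63 in Tnfr1-/- glomeruli, 8.26, 8.38 and 8.23 in Tnfr2-/- glomeruli, and 8.41, 8.5 and 8.14 in wildtype glomeruli. The 6 arrays without TNFR1 lay below the 6 with it. Gnptab changed by -0.71 in Tnfr1,2-/- (SE 0.162, adjusted p = 0.11) and -0.73 in Tnfr1-/- glomeruli (SE 0.162, adjusted p = 0.1, limma), and it was called for the Tnfr1 locus (-0.69, 1.62-fold, SE 0.115, limma adjusted p = 0.0093). That call was lost when the probe sets of the gene were averaged (-0.67, limma adjusted p = 0.15). Acp5, tartrate-resistant acid phosphatase, changed by -1.76 in Tnfr1,2-/- glomeruli (SE 0.513, limma adjusted p = 0.3). For the Tnfr1 locus, 1 gene was called in each of the inhibitor and sorting lists, Cst7 (-1.13, limma adjusted p = 0.0051) and Gnptab, and none in the other 8.

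**Figure D4:**
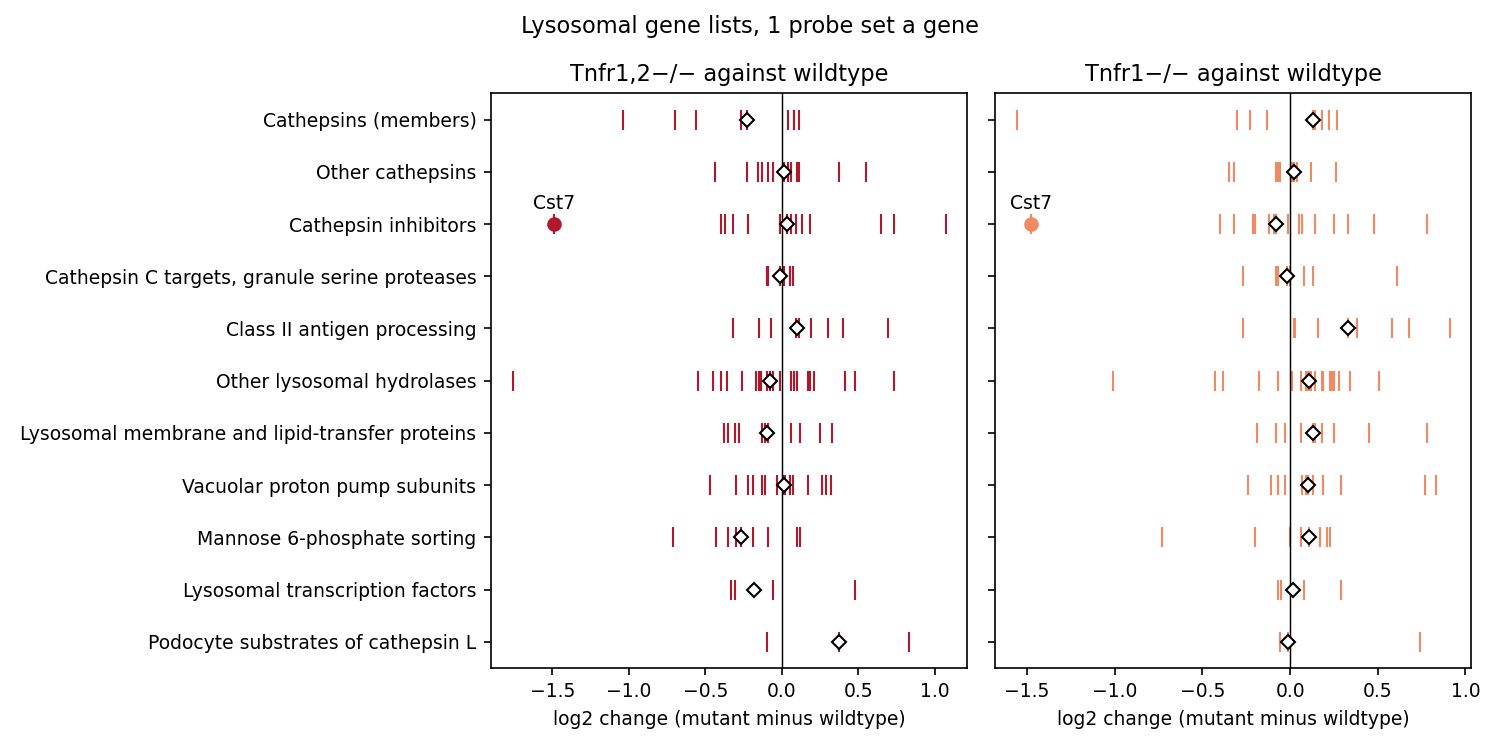
Log2 change of each tested gene (ticks, 1 probe set per gene) in the cathepsin list and the 10 lists of related genes (rows), mutant minus wildtype, for Tnfr1,2-/- glomeruli on the left and Tnfr1-/- glomeruli on the right; diamonds are list medians and filled circles called genes. Cst7 at -1.49 and -1.48 is the only called gene, and the medians of the cathepsins are -0.23 and 0.13.

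Markers of leukocytes were followed beside Ctsc and Cst7, since both genes are abundant in such cells. Of 16 macrophage markers 0 were called in Tnfr1,2-/- or Tnfr1-/- glomeruli, with median changes of -0.25 and 0.14. Of the 16, 12 lay above the array median on all 12 arrays, whereas Cd163, Cx3cr1 and Itgam lay below it on all arrays. The mean log2 value of the 16 markers per array was 7.06 to 7.55 in Tnfr1,2-/-, 7.17 to 8.29 in Tnfr1-/-, 7.44 to 8.24 in Tnfr2-/- and 7.35 to 7.86 in wildtype glomeruli. The group means were 7.25 for Tnfr1,2-/-, 7.7 for Tnfr1-/- and 7.76 for Tnfr2-/- glomeruli, against 7.52 for wildtype, and the ranges of each mutant overlapped that of wildtype. The 7 neutrophil markers tested had mean values of 4.17 to 4.59 in Tnfr1,2-/-, 4.37 to 4.59 in Tnfr1-/-, 4.79 to 4.93 in Tnfr2-/- and 4.76 to 4.93 in wildtype glomeruli, and S100a9, Mpo, Elane and Ngp lay below the array median on all arrays. Their median change was -0.13 in Tnfr1,2-/- and -0.1 in Tnfr1-/- against wildtype glomeruli, with 0 called, and 0 for the Tnfr1 locus, where 4 of 7 lay below 0. For the Tnfr1 locus 2 of the 7 were called lower, against 1.46% of all genes, Camp (-1.78, SE 0.239, limma adjusted p = 0.0023) and S100a8 (-1.22, SE 0.181, limma adjusted p = 0.0044). In bulk glomeruli fewer cells of a type and less RNA per cell cannot be told apart, and the part of leukocyte content in the values of Ctsc, Ctsz and Cst7 was not tested. The 8 lymphocyte markers had median changes of 0.04 and 0.14 in Tnfr1,2-/- and Tnfr1-/- glomeruli, and 0 were called. Among resident cells the medians in that order were 0.43 and -0.04 for podocytes, 0.42 and 0.7 for endothelium, 0.21 and 0.14 for mesangial and smooth muscle cells, 0.35 and -0.03 for parietal and 0.23 and 0.15 for tubular epithelium. The only call among these was Itga8, an integrin of mesangial cells, in Tnfr1-/- glomeruli (1.4, SE 0.206, limma adjusted p = 0.011), and it was lost without wildtype 1 or wildtype 2 (at most 0.068).

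The genes whose pattern over the 12 arrays was most like that of 1416382_at of Ctsc were Marchf3 (Pearson's r = 0.94), Kif22 (0.938), Cdk6 (0.936), Gsta3 (0.931) and Cldn1 (0.929). None of these was called against wildtype. For 1437939_s_at, named after its values were seen, they were Mmp13, a collagenase (0.957), D17H6S56E-5 (0.956), Rnf150 (0.941), Slc7a11, the cystine transporter (0.939), and Bmpr1b, a bone morphogenetic protein receptor (0.939). Of these, Mmp13, D17H6S56E-5, Slc7a11 and Bmpr1b were called lower in both Tnfr1,2-/- and Tnfr1-/- glomeruli. In Tnfr1,2-/- and Tnfr1-/- glomeruli Mmp13 changed by -1.24 and -1.54 and Bmpr1b by -1.79 and -2.1, and the call of Mmp13 in Tnfr1,2-/- glomeruli held in only 2 of the 12 fits that left out 1 array. The correlations describe 12 arrays of 4 genotypes and carry no test, and the comparisons with wildtype share the same 3 wildtype arrays.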

How the data were processed

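RNA of TNF-stimulated glomeruli was measured on 12 Affymetrix mouse arrays. The authors extracted probe signals and applied the robust multichip average (RMA) to all arrays jointly. The log2 values the authors deposited were taken without further change; dim signals are compressed on this scale, so that folds of dim probe sets can be too small. Control probe sets (64) and those with several symbols (932) or none (9160) were left out. A linear model of the 4 genotypes was fitted (R 4.3.3, limma 3.58.1, eBayes moderation, 8 residual degrees of freedom), with p-values adjusted over 34945 probe sets in each of 9 comparisons, and was tested on simulated data. The members, the lists and the contrasts of the Tnfr1 locus, the Tnfr2 locus and their interaction were chosen with earlier results of these data known. Named were all cathepsin probe sets, up to 4 genes per list with the smallest adjusted p in Tnfr1,2-/- against wildtype, the 5 genes most like Ctsc, and the targeted genes; any other is said to be so. Alternatives were another summary per gene, all probe sets, SAM, other variance models, array weights, fold thresholds, further normalization, filters, blocks and each array left out. Differences between the Ctsc probe sets are given without their planned permutation test, since they were known when the probe sets were chosen. Promoters came from RefSeq. In 8 cell type lists, lymphocyte, podocyte, endothelial, mesangial, tubular and parietal markers were counted besides macrophages and neutrophils.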

Additional observations from a re-analysis of the deposited data

How the results depend on the processing

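No cathepsin value changed direction together with its call under any setting. The Tnfr1 locus call of Ctsc 1437939_s_at held in every setting in which that probe set was fitted. Cathepsin probe sets called in Tnfr1,2-/- against wildtype (1) became 3 with array weights and with the replicate block, 2 with the array set as a block, and 0 in the fit to the 6 arrays compared or without s, x and a probe sets, which drops 1437939_s_at. In Tnfr1-/- against wildtype (1) they became 3 with SAM, the replicate block and the array set block, and 0 without s, x and a probe sets. In Tnfr1,2-/- against Tnfr2-/- (1) they became 0 in the fit to 6 arrays and without s, x and a probe sets, as they did in Tnfr2-/- against Tnfr1-/- (1), which gave 3 with either block. Cathepsin genes called (0 in all pairs) became 1 in Tnfr1,2-/- against wildtype with array weights and the replicate block, in Tnfr1-/- against wildtype with 1 probe set per gene, the mean of the probe sets of a gene, SAM and both blocks, and in Tnfr2-/- against Tnfr1-/- with the mean of the probe sets and both blocks. Leaving out each array in turn gave 0 to 1 probe sets in Tnfr1,2-/- against wildtype and against Tnfr2-/-, 0 to 2 in Tnfr1-/- against wildtype and in Tnfr2-/- against Tnfr1-/-, and 1 to 3 for the Tnfr1 locus; genes gave 0 to 1 in Tnfr1-/- against wildtype, in Tnfr2-/- against Tnfr1-/- and for the Tnfr1 locus. Ctsz 1417868_a_at and 1417869_s_at were also called in Tnfr1,2-/- against wildtype with the replicate block (adjusted p 0.038 and 0.04). Of the single changes of cathepsin probe sets, 4158 kept direction and side of the threshold, 19 gained a call, 43 lost one and 178 without a call changed sign. Of 18 same-numbered pairs of arrays 15 deviated together (r over 0.1, range -0.3 to 0.81) and 3 did not, and the labels name no shared animal, litter or day, so the replicate number was not used as a pairing; 8 of 12 arrays correlated best with an array of their own number. Of 162 counts over lists, 122 were 0 under every setting. With 3 arrays a group the calls near the threshold rest on single arrays.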
